A study of Homo sapiens with 12 samples.

Results

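The kinesin and dynein motor genes are described here by the acetylated RNA peaks that lay on them in a human cholangiocarcinoma line with and without knockdown of NAT10. Members were the protein-coding genes of the RefSeq annotation whose symbol starts with KIF followed by a digit or C, or with KLC, DYNC or DYNLL, leaving out KIFBP, which binds kinesins but is no motor. The rule gave 57 of 20037 protein-coding genes and used no measured value. They were sorted by known role into 13 mitotic kinesins, 11 neuronal transport kinesins, 18 other kinesins, 4 kinesin light chains and 11 dynein subunits. The sorting was done with earlier results of these data known.

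Kinesins and cytoplasmic dynein are motor proteins that hydrolyse ATP to walk along microtubules, most kinesins towards the plus end and dynein towards the minus end. Mitotic kinesins build the spindle, move chromosomes and drive cytokinesis, and their RNAs are made mainly in dividing cells. Transport kinesins carry vesicles, mitochondria and RNA over long distances, above all in axons and dendrites, and some of them are made mainly in neurons.

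The study measured N4-acetylcytidine (ac4C), a modified RNA base, in RBE cells, a line derived from human intrahepatic cholangiocarcinoma, a cancer of the bile ducts within the liver. NAT10 is the enzyme that acetylates cytidine in RNA. Cells infected with lentivirus carrying a hairpin against NAT10 (sh-NAT10) and cells with a control hairpin (sh-NC) were compared. RNA cut to 100 to 200 bp was pulled down with an antibody to ac4C, and the pulled-down RNA and its input were sequenced, in 3 replicates for each of the 4 groups, 12 libraries in all. Per the labels, stable knockdown lines came from resistant colonies under puromycin, while the number of colonies or hairpins was not given in the sources used here. Each arm has 1 peak list, so the spread between replicates cannot be measured and no p-value is given. The read depth behind the lists is unknown. Less acetylation, less of the RNA and fewer reads cannot be told apart for a gene without a peak, and neither NAT10 RNA nor its protein was measured here.

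The control list held 34365 peaks and the knockdown list 28047, of which 225 (0.655%) and 169 (0.603%) overlapped the span of a motor gene by at least 1 bp. Of these, 36 control and 25 knockdown peaks also overlapped another gene, and 50 and 38 were wider than 1000 bp. Where the RefSeq promoter table gave the strand of the gene, 17 of 182 control peaks and 11 of 143 knockdown peaks lay on the opposite strand. Each peak carries a score that the authors deposited, of unknown scale, which is used here only to describe and rank peaks within a list (control median 12.17, knockdown median 12.37). Of 10 marker genes of bile duct epithelium, 9 had peaks in both lists, with 45 control and 46 knockdown peaks, and EPCAM was at 0 in both.

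Motor genes as a whole had fewer peaks in the knockdown list. Of the 57 genes, 45 had a control peak, 35 had a knockdown peak, 32 had both and 9 had neither. A control peak without any knockdown peak was found on 13 of 45 genes (28.9%, 95% Wilson interval 17.7 to 43.4), close to the 26.3% of all protein-coding genes with a control peak. A knockdown peak without any control peak was found on 3 of 35 (8.57%, 2.96 to 22.4), against 17.4% of all protein-coding genes with a knockdown peak. Fewer knockdown than control peaks were counted on 26 of the 48 genes with any peak (54.2%), against 46.1% of all such genes, and more on 11 (22.9%), against 33.3%. Knockdown peaks numbered at most 50% of control peaks on 21 of 45 genes with a control peak, against 42.5% of all such genes, and at least 2 times as many on 2 (KIF20B and KLC1), against 11.4%. The median difference was -1 peak, against 0 over all protein-coding genes with any peak. Knockdown peaks came to 75.1% of control peaks on motor genes and to 81.7% on all protein-coding genes. By number of control peaks, no knockdown peak was found on 6 of 10 motor genes with 1 control peak (43.1% of all such genes), 5 of 17 with 2 to 3 (23.6%), 0 of 11 with 4 to 9 (11.2%) and 2 of 7 with 10 or more (8.61%), these being KIF5A and KIF5C.

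The counts differed between roles, though with 1 list per arm the difference could not be tested. None of the 10 mitotic kinesins with a control peak was without a knockdown peak (0%, 0 to 27.8), whereas 6 of 10 neuronal transport kinesins were (60%, 31.3 to 83.2). Other kinesins (4 of 12, 33.3%, 13.8 to 60.9) and dynein subunits (3 of 10, 30.0%, 10.8 to 60.3) lay close to all genes, and none of 3 light chain genes was without one (0%, 0 to 56.1). Summed over genes, mitotic kinesins had 40 control and 48 knockdown peaks (120.0%) and neuronal transport kinesins 60 and 13 (21.7%). Intervals cover counting error only and treat genes as independent, which they are not. They also do not cover the choice of role lists, made with earlier results of these data known, so the contrast is a description. With peaks of a score of 20 or more the difference in missing genes turned: 3 of 5 mitotic kinesins (KIF2C, KIF18A and KIF20A) and 1 of 4 neuronal transport kinesins (KIF5C) had no knockdown peak, against 47.2% of all genes at that score. The peak numbers did not turn: they were 5 and 7 on mitotic kinesins (140%) and 11 and 5 on neuronal transport kinesins (45.5%), against 103% on all genes.

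**Figure D1:**
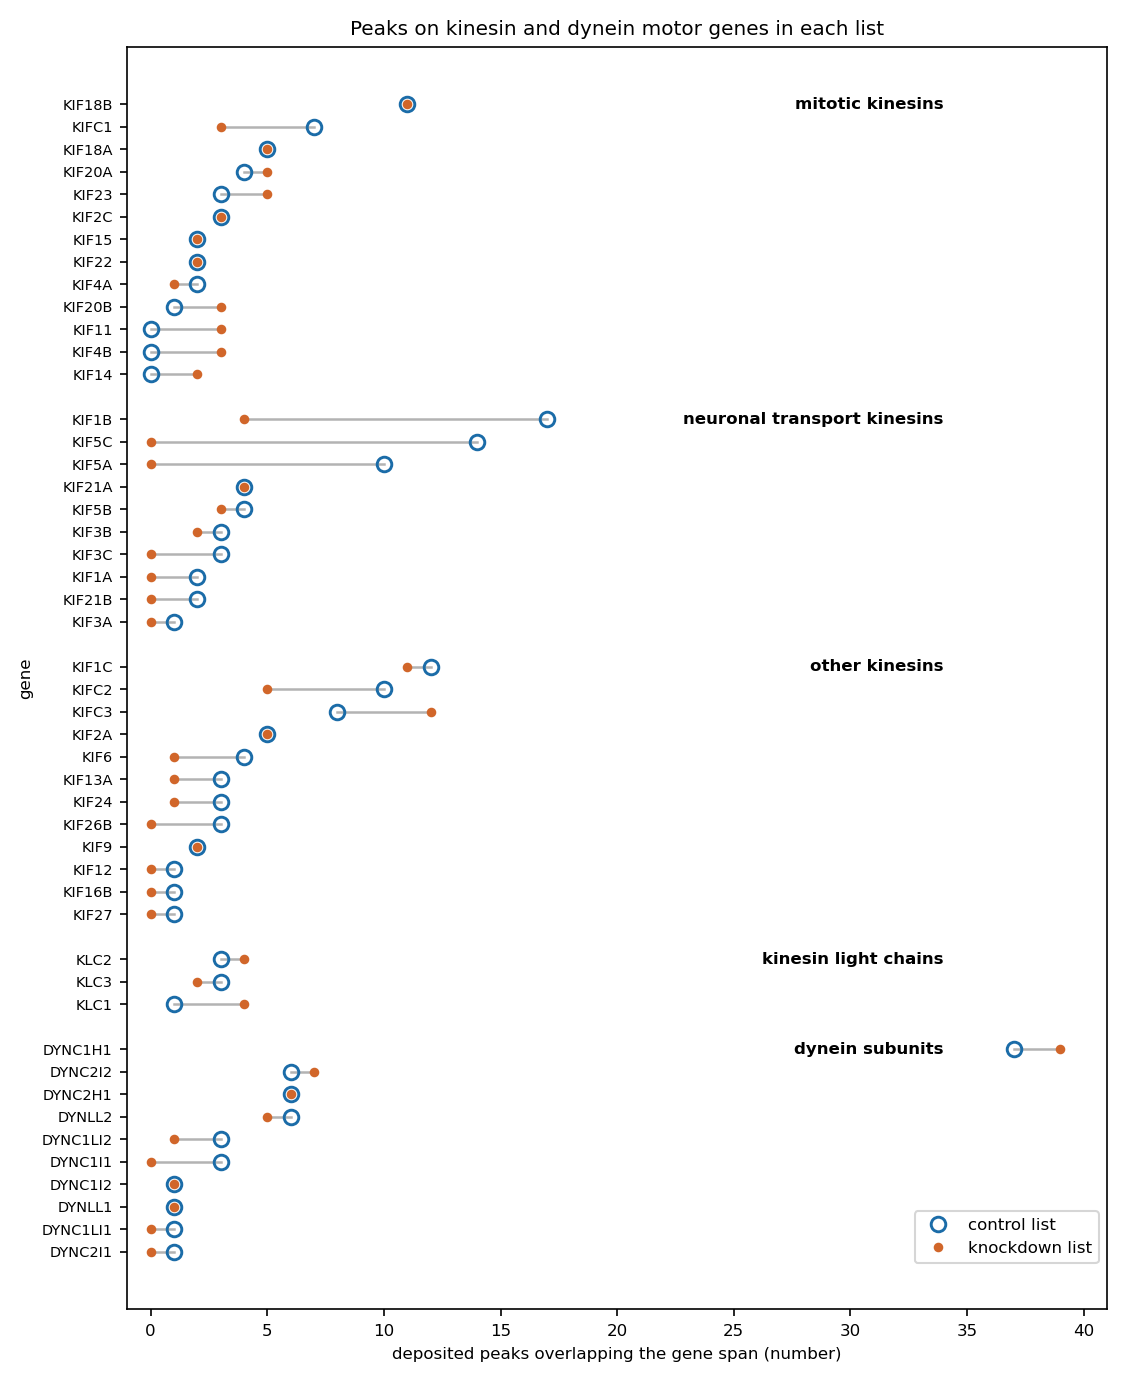
Number of deposited peaks (horizontal axis) on each of the 48 motor genes with any peak (vertical axis), ordered by role. Open blue circles are the control list, filled orange circles the knockdown list and grey lines join both values of a gene. The lines of the neuronal transport kinesins run to the left, KIF1B from 17 to 4, KIF5C from 14 to 0 and KIF5A from 10 to 0, while those of the mitotic kinesins are short and run both ways.

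**Figure D2:**
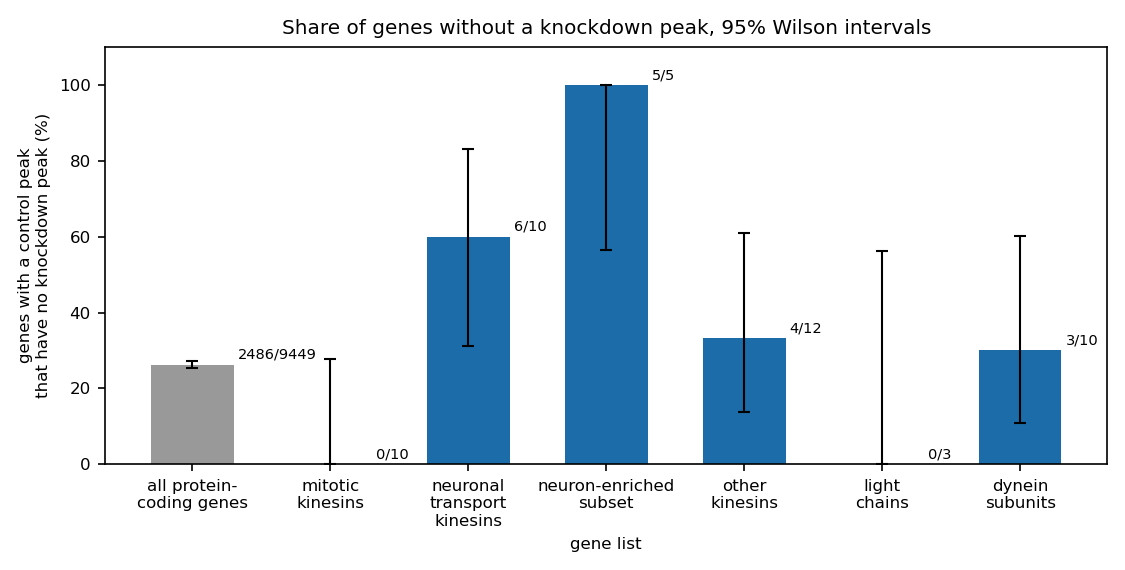
Percentage of control-peak genes lacking any knockdown peak (vertical axis) for all protein-coding genes (grey) and each role (blue). Bars are shares, lines are 95% Wilson intervals for counting error only, and the numbers give the genes counted. Mitotic kinesins are at 0 of 10, neuronal transport kinesins at 6 of 10 and the neuron-enriched subset at 5 of 5.

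Promoter sequence, which the rule did not use, was set beside the roles. Genes with peak expression in mitosis commonly carry a cell cycle homology region, TTTGAA or TTTAAA, bound by the DREAM and MMB complexes, and a CCAAT box, bound by NF-Y. In RefSeq promoters (GRCh38.p14, from 250 bases before the start that the promoter table gives to 50 after it), TTTGAA or TTTAAA on either strand was found in 12 of 13 mitotic kinesins (92.3%), all but KIF22. It was found in 1 of the 9 neuronal transport kinesins with an entry (11.1%, KIF5B) and in 3096 of 15843 protein-coding promoters (19.5%). CCAAT on either strand was found in 11 of 13 (84.6%), 3 of 9 (33.3%) and 36.4%, and both motifs in 10 of 13 (76.9%), 1 of 9 and 7.95%. Within the 250 bases before the start alone, TTTGAA or TTTAAA was found in 7 of 13 (53.8%), 1 of 9 and 18.1%. Both motifs were found there in 6 of 13 (46.2%), 1 of 9 and 6.85%. TTTAAA reads the same on both strands. The start in the promoter table was the start of the gene span for 41 of the 46 motor genes with an entry, and lay inside the span for KIF5C (72648 bases in), DYNC2I2, KIF7, KIF24 and KIFC1. A match is a description of letters and not a binding site, and 0 peaks of either list overlapped any of these promoter windows. To show the contrast, 250 bases before the start are printed for 3 mitotic kinesins and 3 transport kinesins, 5′ to 3′ on the strand of the gene, with matches on either strand in capitals (ATTGG is CCAAT and TTCAAA is TTTGAA on the other strand). The windows are chr10:92592880-92593129 on the plus strand for KIF11, chr5:138178862-138179111 on the plus strand for KIF20A, chr15:69414099-69414348 on the plus strand for KIF23, chr10:32056426-32056675 on the minus strand for KIF5B, chr2:25982498-25982747 on the minus strand for KIF3C and chr2:240821404-240821653 on the minus strand for KIF1A.
KIF11: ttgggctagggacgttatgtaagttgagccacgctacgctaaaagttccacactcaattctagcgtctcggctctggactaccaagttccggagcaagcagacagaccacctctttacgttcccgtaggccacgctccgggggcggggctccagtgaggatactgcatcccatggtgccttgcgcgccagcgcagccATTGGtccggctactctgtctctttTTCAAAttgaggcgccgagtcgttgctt
KIF20A: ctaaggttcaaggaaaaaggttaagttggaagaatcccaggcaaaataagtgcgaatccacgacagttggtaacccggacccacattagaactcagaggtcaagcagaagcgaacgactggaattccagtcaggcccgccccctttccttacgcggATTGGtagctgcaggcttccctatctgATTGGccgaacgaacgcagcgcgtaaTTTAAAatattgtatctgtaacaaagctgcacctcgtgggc
KIF23: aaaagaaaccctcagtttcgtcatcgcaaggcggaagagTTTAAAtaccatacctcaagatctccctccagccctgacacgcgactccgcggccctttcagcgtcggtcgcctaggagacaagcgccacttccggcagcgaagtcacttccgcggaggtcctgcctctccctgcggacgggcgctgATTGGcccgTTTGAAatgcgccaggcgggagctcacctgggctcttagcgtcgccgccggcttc
KIF5B: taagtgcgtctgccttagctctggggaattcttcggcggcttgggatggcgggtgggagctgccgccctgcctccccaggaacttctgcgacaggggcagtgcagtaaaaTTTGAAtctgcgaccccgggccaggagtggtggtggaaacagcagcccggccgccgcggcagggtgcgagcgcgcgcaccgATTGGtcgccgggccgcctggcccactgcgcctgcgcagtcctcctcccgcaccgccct
KIF3C: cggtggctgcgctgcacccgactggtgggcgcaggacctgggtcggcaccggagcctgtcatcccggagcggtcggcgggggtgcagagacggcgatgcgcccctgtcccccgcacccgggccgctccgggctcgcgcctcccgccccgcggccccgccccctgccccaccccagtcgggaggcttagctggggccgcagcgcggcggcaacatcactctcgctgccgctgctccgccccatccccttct
KIF1A: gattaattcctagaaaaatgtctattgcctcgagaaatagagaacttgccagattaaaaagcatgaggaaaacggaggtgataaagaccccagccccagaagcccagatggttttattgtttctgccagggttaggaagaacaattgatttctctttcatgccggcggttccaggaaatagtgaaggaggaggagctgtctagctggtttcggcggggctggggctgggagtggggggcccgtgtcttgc
The mitotic promoters of KIF11, KIF20A and KIF23 hold both motifs, as does that of KIF5B, the transport motor that is made in most cell types. These 3 mitotic examples are among the 6 of 13 mitotic kinesins with both motifs in these bases. The promoters of KIF3C and KIF1A hold neither in these bases.

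In what follows, a pair of numbers gives control and then knockdown peaks. Among the mitotic kinesins, 3 genes had knockdown peaks and no control peak. KIF11 (chr10:92593130-92655395), the tetrameric motor Eg5 that pushes spindle poles apart, had 0 control and 3 knockdown peaks of 50, 152 and 50 bp with scores of 10.38, 14.61 and 12.9. KIF14, a motor of cytokinesis, had 0 and 2, with scores of 11.52 and 10.63. KIF4B, an intronless copy of the chromosome motor KIF4A, had 0 and 3, with a highest score of 26.58. KIF4A had 2 control peaks, with scores of 32.6 and 13.6, and 1 knockdown peak of 1896 bp with a score of 29.41 that overlapped neither. Reads of these near-identical copies could be split between them, so both counts are uncertain. Without KIF4A and KIF4B, none of the mitotic kinesins with a control peak was without a knockdown peak, and knockdown peaks came to 116% of control peaks.

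Other motors with a part in cytokinesis are KIF23, KIF20A and KIF20B. KIF23 (chr15:69414349-69448427), the kinesin of the centralspindlin complex, had 3 control peaks with scores of 10.83 to 11.58 and 5 knockdown peaks. Its highest knockdown peak, 241 bp at chr15:69446045-69446285, had a score of 55.18, above 97.8% of the knockdown list, and overlapped no control peak. KIF20A, which carries the chromosomal passenger complex to the midzone, had 4 and 5 peaks, and all 4 control peaks overlapped a knockdown peak. KIF20B, a related motor of abscission, had 1 and 3.

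Motors that move or orient chromosomes mostly had equal numbers. KIF18B, a depolymerase of astral microtubules, had 11 peaks in both lists, with 7 control peaks shared, that is, overlapping a peak of the other list on the same strand. KIF18A, which limits the oscillation of chromosomes at metaphase, had 5 and 5, KIF2C, a depolymerase that corrects attachments at centromeres, 3 and 3, KIF22, a chromosome arm motor, 2 and 2, and KIF15, which backs up KIF11, 2 and 2. KIFC1 (chr6:33391461-33409896), a minus-end motor that clusters centrosomes, went furthest the other way with 7 control and 3 knockdown peaks. All 3 knockdown peaks of KIFC1 overlapped a control peak, and the knockdown peak at chr6:33403352-33403736 overlapped 2. Of its control peaks 3 had no counterpart, among them a peak on the opposite strand at chr6:33400159-33400283. On KIFC1, 5 control and 2 knockdown peaks overlapped no other gene, and the rest also overlapped RPL12P1.

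More knockdown than control peaks were counted on 6 of 13 mitotic kinesins (46.2%, against 33.3% of all genes with any peak), equal numbers on 5 and fewer on 2, KIFC1 and KIF4A (15.4%, against 46.1%). Of their 40 control peaks 25 were shared (62.5%, 47.0 to 75.8), against 45.3% on all protein-coding genes. Under a score of 20 the share was 24 of 35 (68.6%), against 42.8%, and at 20 or more it was 1 of 5, against 63.5%. Counting peaks up to 1000 bp alone, 2 of 10 mitotic kinesins, KIF15 and KIF4A, had no knockdown peak, against 31.9% of all genes, and knockdown peaks came to 100% of control peaks.

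On most neuronal transport kinesins the knockdown list had fewer peaks or none. KIF5A (chr12:57550044-57586633), the kinesin-1 heavy chain made mainly in neurons, had 10 control peaks, all on the plus strand and overlapping no other gene, and 0 knockdown peaks. KIF5A had no entry in the promoter table, so its direction was taken from these peaks. The control peaks of KIF5A were 25 to 1849 bp wide, began 13.6 kb into the gene in that direction and had scores of 10.28 to 14.85. KIF5C (chr2:148875227-149026759), the second neuron-enriched kinesin-1 heavy chain, had 14 control peaks and 0 knockdown peaks. The highest KIF5C score, 29.45, belonged to a 150 bp peak at the end of the gene (chr2:149026609-149026758), above 94.7% of the control list. KIF5C also held a 46418 bp span, and 2 of its peaks lay on the minus strand and overlapped KIF5C-AS1, an antisense gene, so their assignment is uncertain. KIF5A and KIF5C are thus among the 50 of 581 protein-coding genes with 10 or more control peaks that had no knockdown peak.

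KIF5B (chr10:32009015-32056425), the kinesin-1 heavy chain of most tissues, had 4 control and 3 knockdown peaks, and each of the 3 overlapped a control peak. A 100 bp peak at chr10:32055860-32055959 had the same ends in both lists, with scores of 20.08 and 27.84, and the highest KIF5B peak of the knockdown list (150 bp, score 35.61) began at the same base as a control peak of 175 bp.

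KIF1B (chr1:10210570-10381603), a kinesin-3 that carries mitochondria and synaptic vesicle precursors, had 17 control and 4 knockdown peaks. Its highest control peak, 973 bp at chr1:10294193-10295165 with a score of 34.2, overlapped no knockdown peak, and its highest knockdown peak, 3378 bp with a score of 41.48, overlapped no control peak. Of the 17 control peaks of KIF1B 2 were shared, 1 of them a 2677 bp span with the same ends in both lists. Of the 3 transport kinesins with 10 or more control peaks, KIF1B, KIF5A and KIF5C, each had at most 25% as many knockdown peaks, as had 27.2% of all genes with that many. KIF1A, the axonal motor of synaptic vesicle precursors, had 2 control peaks, with scores of 11.9 and 10.56, and 0 knockdown peaks.

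Of the kinesin-2 genes, KIF3C, the neuron-enriched partner of KIF3A, had 3 control peaks, with scores of 13.84, 18.88 and 13.54, and 0 knockdown peaks. KIF3A, which with KIF3B builds cilia and carries cargo in many cells, had 1 control peak of 3403 bp and 0 knockdown peaks. KIF3B had 3 control and 2 knockdown peaks, and both knockdown peaks had the same ends as control peaks. KIF21B, a neuronal and lymphoid motor that restrains microtubule growth, had 2 and 0. KIF21A, its more widely made relative, had 4 peaks in both lists, none of which overlapped. KIF17, a motor of dendrites, had no peak in either list.

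Fewer knockdown than control peaks were counted on 9 of 10 neuronal transport kinesins with any peak (46.1% of all genes with any peak), with KIF21A equal, and the median difference was -2 peaks. Of their 60 control peaks 7 were shared (11.7%, 5.77 to 22.2). Splitting the list by known tissue, the 6 neuron-enriched genes (KIF1A, KIF3C, KIF5A, KIF5C, KIF17 and KIF21B) had 31 control and 0 knockdown peaks. The 5 others had 7 of 29 control peaks shared (24.1%, 12.2 to 42.1), under the 45.3% of all genes. This split too was written with earlier results of these data known, and its values depend on which genes were placed in it. By score, the share for the whole list was 5 of 49 (10.2%) under 20, against 42.8% on all protein-coding genes. At 20 or more it was 2 of 11 (18.2%), against 63.5%. With peaks up to 1000 bp alone, 5 of 9 had no knockdown peak, against 31.9% of all genes.

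**Figure D3:**
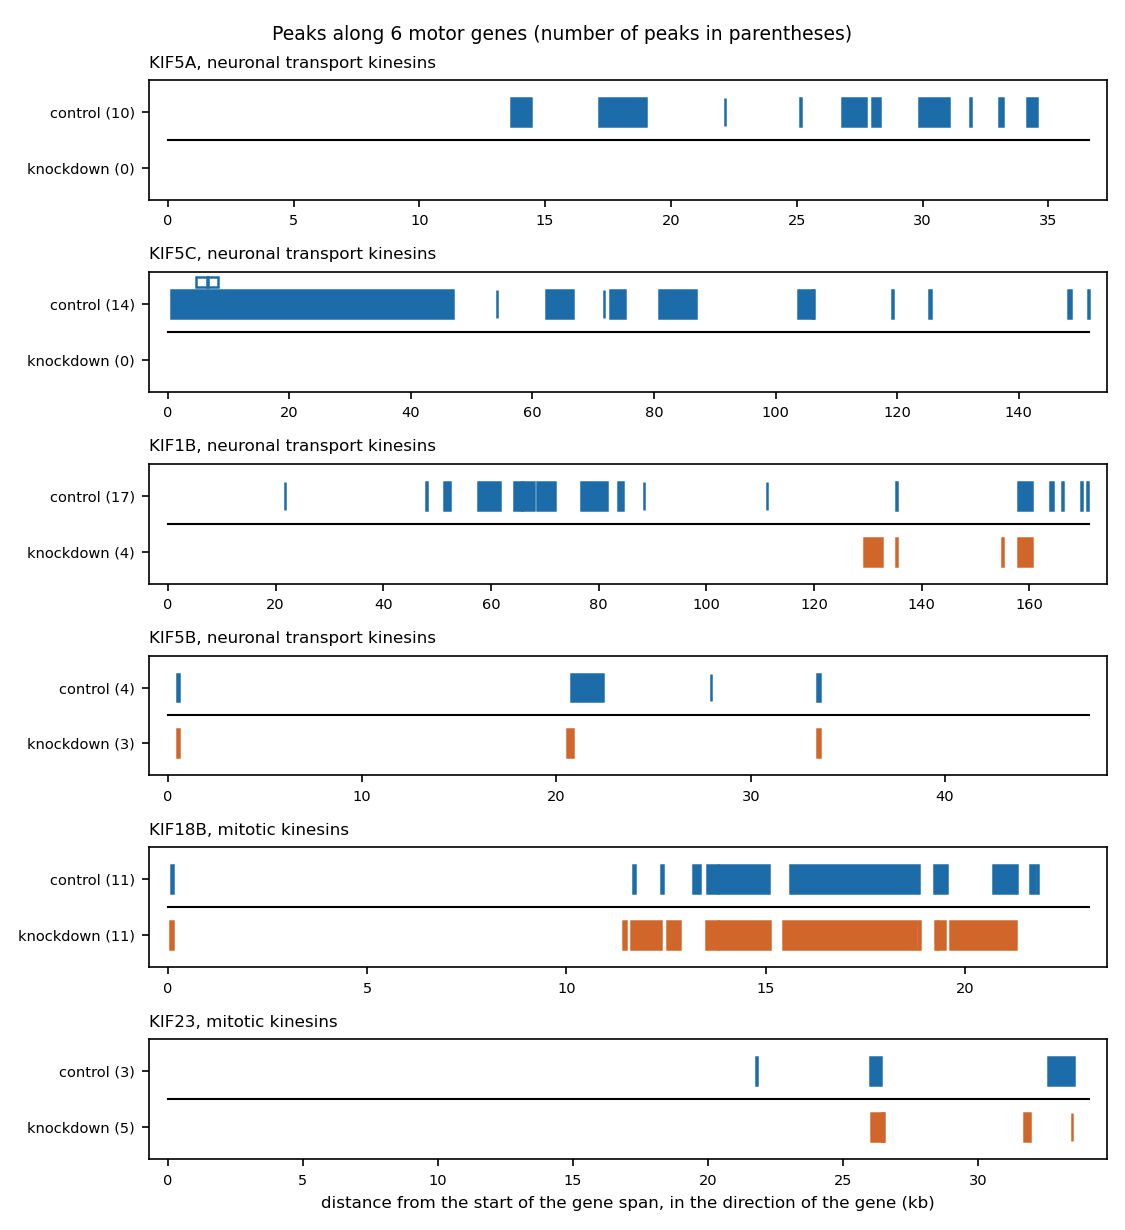
Peaks along 4 neuronal transport kinesins and 2 mitotic kinesins, by distance from the start of the gene in its own direction (horizontal axis, kb). For KIF5A this direction was taken from its peaks. Blue boxes above the line are control peaks, orange boxes below it knockdown peaks, and hollow boxes are peaks on the opposite strand; numbers in parentheses are numbers of peaks. KIF5A and KIF5C have no knockdown box, KIF1B has 4, all towards its end, and boxes of KIF5B and KIF18B overlap between the lists.

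Neuronal and glial marker genes also had far fewer knockdown than control peaks. Of 20 neuron markers, 19 had control peaks and 10 had knockdown peaks, with 193 and 21 peaks in all (10.9%, against 81.7% on all protein-coding genes). No knockdown peak was found on 9 of the 19 (47.4%, 27.3 to 68.3), against 26.3% of all genes with a control peak. PCLO, a scaffold of the presynaptic zone, had 29 control peaks and 1 knockdown peak, and SCN2A, a sodium channel, 27 and 1. Knockdown peaks were at 0 for MAP2, GABRB2, DLG4, GAP43, BSN, NEFL, NEFM, SYP and RBFOX3, and GRIN1 was at 0 in both lists. Of 6 astrocyte markers 4 had a control peak and 1 (AQP4) a knockdown peak, with 20 and 1 peaks (5.0%). No knockdown peak was found on 3 of the 4 (75.0%, 30.1 to 95.4). GFAP and ALDH1L1 were at 0 in both lists. Of 6 oligodendrocyte markers 3 had a control peak, among them MBP with 5, and none had a knockdown peak. All 3 were thus without one (100%, 43.9 to 100), with MAG, MOBP and MOG at 0 in both lists. The part of these genes in the result on transport kinesins was not tested.

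The other kinesins were mixed. KIF1C (chr17:4997950-5028401), a Golgi and vesicle motor mutated in spastic ataxia, had 12 control and 11 knockdown peaks, 9 of the control peaks shared. KIFC3, a minus-end motor at cell junctions, had 8 and 12, with 6 control peaks shared, and KIFC2, also a minus-end motor, had 10 and 5, with 5 shared. KIF2A, a microtubule depolymerase, had 5 and 5, including in both lists a 208829 bp span with a score of 0 that also covers DIMT1 and IPO11.

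Control peaks without any knockdown peak were found on KIF26B, KIF16B, KIF27 and KIF12. KIF12, whose inherited loss causes cholestatic liver disease, had 1 control peak of 50 bp with a score of 21.02. KIF16B, a motor of early endosomes, had 1 of 25 bp with a score of 11.01, close to 10, the value above which most scores lie. KIF26B, which lacks motor activity, had 3, of which 2 were spans of 91281 and 29663 bp inside the gene. KIF6 had 4 control peaks and 1 knockdown peak, 2 of the control peaks being spans of 108653 and 32392 bp. KIF13A, an endosome motor, and KIF24, a depolymerase at centrioles, each had 3 and 1. KIF2B, KIF7, KIF13B, KIF19, KIF25 and KIF26A had no peak in either list.

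KIF9, a motor of motile cilia and flagella, had 2 peaks with the same ends in both lists, a 9304 bp span and a 100 bp peak at chr3:47250523-47250622 within it. Both also overlapped SNORD13J and SNORD13P3, named as relatives of the small nucleolar RNA that guides NAT10 to 18S ribosomal RNA. The 2 peaks shared a score of 15.8 in the control list and of 39.55 in the knockdown list, above 78.0% and 95.9% of the lists. KIF9 was outside the rule for named genes and was chosen after its values were seen.

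Kinesin light chains, which tie kinesin-1 to its cargo, had 7 control and 10 knockdown peaks. KLC1 had 1 and 4, 1 of them an antisense peak that also overlaps XRCC3 and 1 with a score of 0.4771. All peaks of KLC2 (3 and 4) also overlapped PACS1 or KLC2-AS1, and all peaks of KLC3 (3 and 2) also overlapped ERCC2, so they cannot be given to the light chains with certainty. KLC4 had none.

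Most dynein peaks lay on a heavy chain. DYNC1H1 (chr14:101964573-102056443), the motor subunit of cytoplasmic dynein, had 37 control and 39 knockdown peaks, the most of any motor gene in either list, and 31 of each overlapped a peak of the other. Of these, 14 had the same ends in both lists. The highest score on the gene lay, in both lists, at the same 6066 bp span, chr14:102044388-102050453, with 163.4 and 179.6, above 99.6% of each list. That span lies on the minus strand, opposite to DYNC1H1, as does a 7548 bp span beside it, so it need not be DYNC1H1 RNA. On the strand of the gene, a 175 bp knockdown peak at chr14:102016329-102016503 had the highest score, 66.74.

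**Figure D4:**
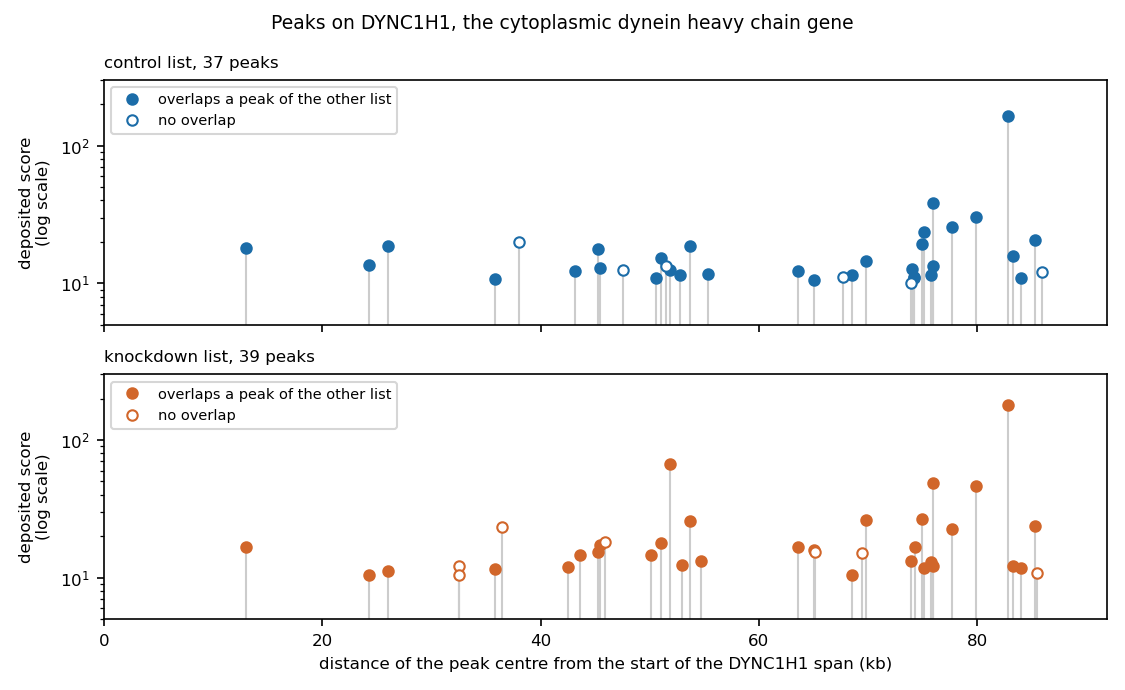
Peaks of DYNC1H1 by distance of the peak centre from the start of the gene (horizontal axis, kb) and deposited score (vertical axis, log scale), with the control list (37 peaks) above and the knockdown list (39 peaks) below. A knockdown peak of 13192 bp, centred past the end of the gene, lies outside the plot. Filled points overlap a peak of the other list on the same strand and open points do not. In each list 31 points are filled, and the highest in each, 163.4 and 179.6, lies on the opposite strand.

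The other dynein subunits had few peaks. Among the chains of cytoplasmic dynein 1, DYNC1I1, the intermediate chain made mainly in neurons, had 3 control peaks with scores of 10.23 to 11.16 and 0 knockdown peaks. DYNC1I2, the intermediate chain of most tissues, had 1 in both lists, which overlapped. DYNC1LI1, a light intermediate chain that binds cargo adaptors, had 1 and 0, and DYNC1LI2 had 3 and 1, none shared, with 1 control span of 9124 bp on the opposite strand listed at a score of 0. The light chain genes DYNLL1 and DYNLL2 had 1 and 1, and 6 and 5.

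Dynein 2 moves cargo within cilia. Its intermediate chain DYNC2I2 had 6 and 7 peaks, and all 6 control peaks overlapped a knockdown peak. DYNC2H1, its heavy chain, had 6 and 6, of which 4 control and 3 knockdown peaks lay on pseudogenes of mitochondrial genes inside the gene, among them a 36095 bp span with an infinite score in both lists. DYNC2I1 had 1 and 0, a 4443 bp span, and DYNC2LI1 had none. Over all dynein subunits 47 of 65 control peaks were shared (72.3%, 60.4 to 81.7), and without DYNC1H1 16 of 28 (57.1%, 39.1 to 73.5).

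Position along the gene was taken for peaks up to 1000 bp that overlap no other gene. Direction came from the strand of the peak, for motor genes and all genes alike, so peaks opposite to their gene were placed from its other end. Of 149 such control peaks on motor genes 30 (20.1%, 14.5 to 27.3) lay in the last 10% of the span, against 30.6% on all protein-coding genes, and of 114 knockdown peaks 19 (16.7%, 10.9 to 24.6), against 22.6%. On mitotic kinesins the numbers were 4 of 32 (12.5%) and 3 of 33 (9.09%), and on neuronal transport kinesins 11 of 38 (28.9%) in the control list. Per 10 kb of span, introns included, the control list held 12.3 peaks on KIFC2, 4.95 on DYNLL2, 4.77 on KIF18B, 4.64 on KIF20A and 4.03 on DYNC1H1, and 0.0332 on KIF16B.

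The partners of the motors were counted in the same way. Of 25 spindle and cytokinesis partners, 21 were in the control list and none of these was without a knockdown peak (0%, 0 to 15.5). More knockdown than control peaks were counted on 18 of the 23 with any peak (78.3%, against 33.3% of all genes), with 69 and 107 peaks in all (155%, against 81.7%). PLK1, a mitotic kinase, had 6 and 11, ANLN, the contractile ring protein anillin, 3 and 8, and TPX2, which activates Aurora A on the spindle, 3 and 8. CENPF and NUMA1 had fewer, 6 and 4 and 14 and 12.

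Of 19 genes of dynactin, the remaining dynein light chains and the LIS1 group, which switch dynein on, 16 had control peaks and 16 had knockdown peaks. Peaks numbered 45 in both lists (100%, against 81.7% on all protein-coding genes). No knockdown peak was found on 1 of the 16 with a control peak (6.25%, 1.11 to 28.3), against 26.3% of all genes. Of the 17 with any peak, 9 had more knockdown peaks (52.9%, against 33.3%) and 4 fewer (23.5%, against 46.1%). PAFAH1B1, which encodes LIS1, had 9 and 3, its partner NDEL1 4 and 1, and CAPZB, a capping protein of dynactin, 6 and 8. Of 26 motor adaptors and cargo linkers, 19 had a control peak and 4 of these no knockdown peak (21.1%, 8.51 to 43.3), near the 26.3% of all genes, with 63 and 53 peaks (84.1%, against 81.7%). BICD1, a dynein adaptor, had 6 and 1, PLEKHM2, which ties kinesin-1 to lysosomes, 5 and 9, and FEZ1, a kinesin-1 adaptor abundant in brain, 4 and 0.

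**Figure D5:**
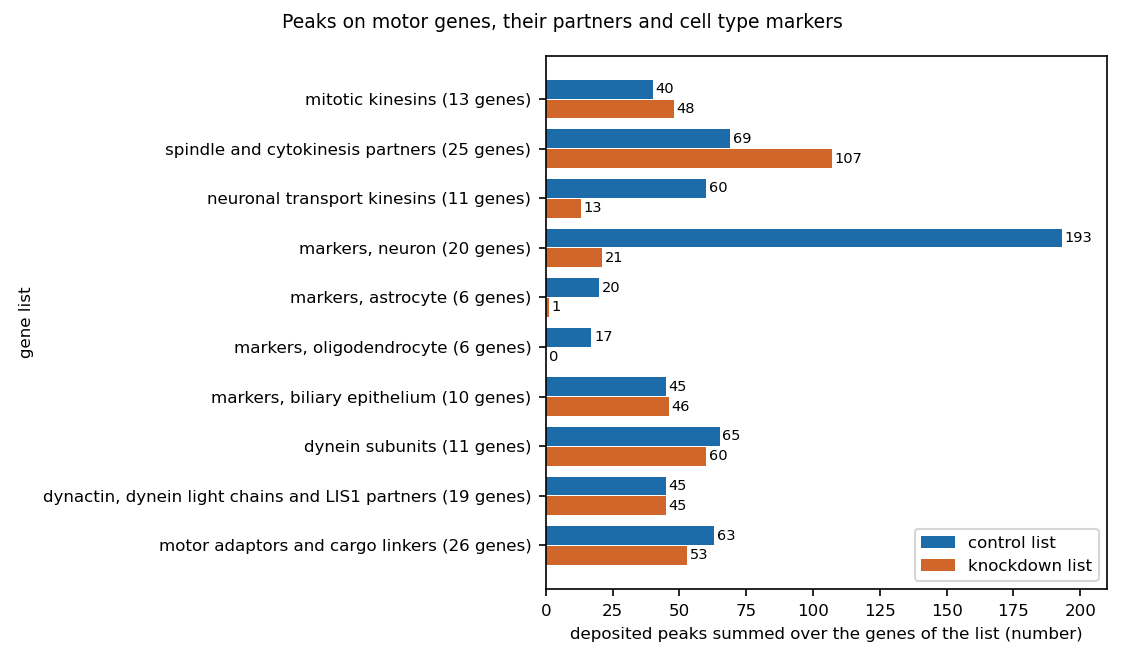
Deposited peaks summed over the genes of each list (horizontal axis, number), control list in blue and knockdown list in orange, for motor roles, partner lists and cell type markers (vertical axis, number of genes in parentheses). Spindle partners go from 69 to 107 beside mitotic kinesins from 40 to 48, and neuron markers from 193 to 21 beside neuronal transport kinesins from 60 to 13.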

How the data were processed

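The authors deposited 1 peak list per arm, without column names, in which each peak has a strand and a score of unstated scale. The build was hg38, and the tools named were Bowtie2 2.4.1 and fastp 0.20.1, per the submitters' processing notes; peak caller, threshold, use of input, strandedness and any pooling were not given in the sources used here. Labels give polyA RNA as the molecule but name a whole RNA library kit. A name that fits only control titles placed the control list, and the remaining list taken as the knockdown list.

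Gene spans came from the RefSeq table of GRCh38.p14, and strand and promoters from its promoter table (46 of 57 members had an entry; the other 11 took the strand of most of their peaks). Exons and the sequence under peaks were not analysed here, so spans may cover introns. Overlap was at least 1 bp on either strand for genes and on the same strand between lists (shared peaks), computed with Python 3.11.15, NumPy 2.4.6 and pandas 2.3.3 and tested on simulated data against bedtools 2.31.1. Intervals are 95% Wilson (statsmodels 0.14.6), and figures used matplotlib 3.10.9. Members, role lists, partner and marker lists were chosen with earlier results of these data known. Named genes were, in each role list, the 4 with the largest difference in peak number, then by total and symbol, the 5 with the highest score among peaks up to 1000 bp in no other gene, and the 3 largest differences of each partner or marker list; other members are given by counts, with examples, and some genes the rule names are left out of the text. Alternatives covered score, list length, width, overlap, gene assignment, merging and sharing. Whether replicates were separate cultures was not given in the sources used here.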

Additional observations from a re-analysis of the deposited data

How the results depend on the processing

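Of 71 results recomputed under another setting, 62 stayed within 1.5 times the main count or within its interval and 9 moved. Numbers of genes were compared as bare counts, without regard to the total they came from. Motor genes seen only in the control list were 10 of 19 at a score of 20 or more, against 13 of 45 without that limit. Over all protein-coding genes with a control peak, the share also rose, from 26.3% without that limit to 47.2% at that score. Neuronal transport kinesins seen only in the control list were 5 of 5 in the neuron-enriched subset, against 6 of 10 in the whole list. These counts of motor genes are among the 62, although their shares rose. No paired analysis was possible because each arm is 1 list whose columns carry no replicate, and for the same reason no replicate could be left out. At a score of 20 or more, motor genes had 33 control peaks (225 without that limit) and 30 knockdown peaks (169). With both lists held to that score, 27.3% of the control peaks were shared (48.4%). Set beside the whole knockdown list, 39.4% of these 33 peaks were shared, against 63.5% on all protein-coding genes. A knockdown peak and no control peak was found on 6 of 15 genes (3 of 35), and the share of all genes at that score was not counted. At that score 3 mitotic kinesins (0) and 1 neuronal transport kinesin (6) had a control peak and no knockdown peak, and knockdown peaks came to 45.5% of control peaks on neuronal transport kinesins (21.7%). With peaks up to 1000 bp, 2 mitotic kinesins had no knockdown peak, and with the neuron-enriched subset the percentage was 0. The causes were not tested. With the control list shortened by score to the length of the knockdown list, knockdown peaks came to 101% of control peaks over all protein-coding genes, 25.5% on neuronal transport kinesins, 137% on mitotic kinesins and 103% on dynein subunits (92.3% with the whole list), so dynein passed from fewer to more peaks. Across settings the dynein value ran from 90.8% to 108%. The settings that leave out scores of 0 or infinity, and KIF4A with KIF4B, were chosen after seeing the data. Few peaks per gene limit each count, and read depth is unknown.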

Other observations

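Other motor families, chosen after the data were seen, were counted in the same way. Of 13 axonemal dynein heavy chain genes (DNAH), which drive motile cilia, 6 had a control peak. No knockdown peak was found on 3 of the 6, with a 95% Wilson interval of 18.8% to 81.2% that spans the 26.3% of all genes. Peaks numbered 6 in both lists (100%, against 81.7% on all genes), with none above 2 on a gene. Of 25 myosin genes outside the muscle families, actin-based motors, 19 had a control peak. Of these, 2 had no knockdown peak (10.5%, 95% Wilson interval 2.94 to 31.4), against 26.3% of all genes. The family had 99 control and 84 knockdown peaks (84.8%), near the 81.7% of all genes. Of the 21 with any peak, 10 had fewer knockdown peaks (47.6%, against 46.1%), 3 equal numbers and 8 more (38.1%, against 33.3%). MYO5A, the organelle motor abundant in neurons and pigment cells, had 15 control and 3 knockdown peaks, MYO9A 12 and 5, and MYO18A 7 and 1. MYO1E, a membrane-bound myosin of epithelia, had 2 and 7, MYO5B, a recycling endosome motor, 5 and 8, and MYO19, a mitochondrial myosin, 6 and 9.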
